A study of Mus musculus with 143 samples.

Results

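The regions described here are the promoter class of a reporter experiment in P5424, a T cell line of mouse origin. They are the 1100 regions that both deposited tables place in the class Pro_K4me3_K27ac_PolII, out of 12897 captured regions, or 8.53% of them. The class name holds a promoter prefix, H3K4me3, H3K27ac and RNA polymerase II, and no reporter value was used to choose the regions. The cells in which those marks were measured are not given in the sources used here. Among the 143 samples of the series, the 3 libraries described are 2 capSTARR-seq RNA replicates and 1 input library, all from P5424. The labels give P5424 no genotype, treatment or time point, and nothing in them ties the replicates to separate transfections, so the spread between them may be technical. Both replicates share the single input library. Its molecule label is total RNA, like that of the replicates, and whether it was plasmid DNA or RNA is not stated, so a fold here is over whatever that library holds. An error in the input of a region therefore enters both of its folds in the same direction.

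A promoter is the stretch of DNA around a transcription start where RNA polymerase II is loaded, and H3K4me3 and H3K27ac are histone marks found on active promoters. An enhancer raises transcription from a promoter elsewhere. Some promoters also act as enhancers of other genes. In capSTARR-seq, a capture step picks genomic fragments, which then sit in the transcribed part of a reporter, so a fragment with enhancer activity raises the amount of its own RNA. A promoter region with much RNA for its input is read in this assay as having enhancer activity.

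Promoter class regions were well covered. Their median input was 72.1 FPKM (reads per length of region and per depth of library), against 22.5 FPKM over all regions. Their median number of reads, recovered from the FPKM steps, was 961.5 in the input, 1126.5 in RNA replicate 1 and 1232 in RNA replicate 2. The class held 19.5% of the input reads in captured regions, 23.8% of those of RNA replicate 1 and 23.9% of those of RNA replicate 2. Its share of the reads was thus larger in both RNA libraries than in the input. In each RNA library 7 of the 1100 regions were at 0, and no region of the class was at 0 in the input, where the lowest held 14 reads.

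The first question was where the class stood relative to its input. Activity is given as a fold, FPKM plus 1 in the RNA divided by FPKM plus 1 in the input. The median promoter class region had a fold of 1.05 in RNA replicate 1 and 1.05 in RNA replicate 2. Over all regions the medians were 0.852 and 0.862. Most captured regions thus lay under their input, while the median of the promoter class lay just over it in both replicates. Leaving out the highest and lowest 10% of the class, folds ran from 0.521 to 1.93 in replicate 1 and from 0.519 to 1.97 in replicate 2. The lowest and highest folds were 0.111 and 5.02 in replicate 1, and 0.0602 and 5.46 in replicate 2.

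Other classes served for comparison. The median of TSS_Random, a class that the sources used here do not define further, was 1.002 in replicate 1 and 0.995 in replicate 2. Enh_K4me1_K27ac_PolII, the enhancer class with the same acetylation and polymerase labels, had medians of 0.857 and 0.862. Random regions had medians of 0.657 and 0.679. On the log2 scale the promoter class median lay 0.65 ± 0.03 above that of Random (mean ± SD of the difference, n = 2 replicates) and 0.29 ± 0.0015 above that of Enh_K4me1_K27ac_PolII. Its distance to TSS_Random was 0.07 ± 0.01. Each of these differences had the same sign in both replicates. With 2 replicates the smallest p that an exact two-sided sign test allows is 0.5, so the differences between classes are a description.

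The class spread to both sides of its input. In both replicates 494 of its 1100 regions, or 44.9%, had a fold above 1, against 27% of all regions. A further 396, or 36%, had a fold below 1 in both, against 50.8% of all regions. At the low end, 132 regions, or 12%, stood at 1/1.5 or less in both replicates, where the background was 18.8%, and 6 stood at 1/3 or less, 0.545% against 1.33%. Both low shares were thus under those of the whole table. In replicate 1 the class had 356 regions with a fold from 1 to 1.5, 147 from 1.5 to 2, 74 from 2 to 3 and 16 at 3 or more. The same bins held 353, 148, 81 and 23 regions in replicate 2.

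**Figure D1:**
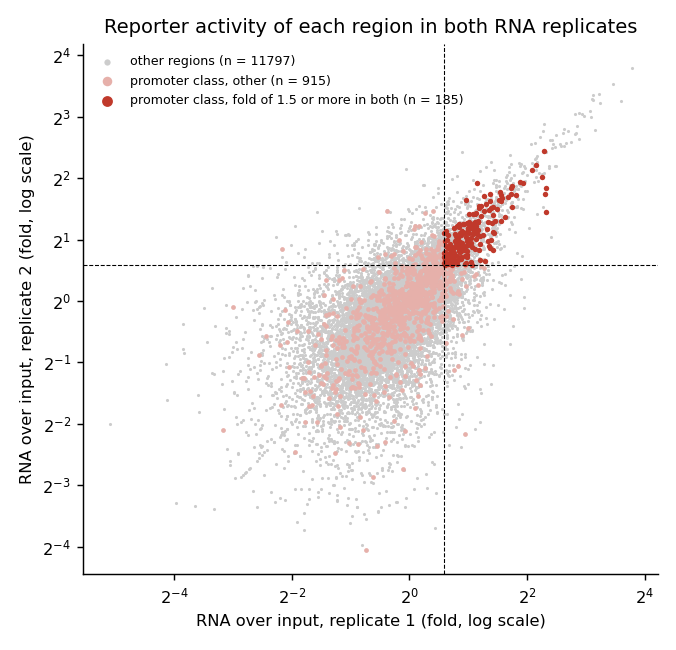
Fold of RNA over input in RNA replicate 1 (x axis) and RNA replicate 2 (y axis), both on log scales, with 1 point per region and dashed lines at a fold of 1.5. The 185 promoter class regions past both lines (dark red) follow the diagonal, which the need to pass both lines favours, and end at 5.46, while some other regions (grey) reach higher.

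A region was called active when its fold was at least 1.5 in both replicates. This held for 185 promoter class regions, 16.8% of the class, beside a background of 8.51% over all regions. The count depends on the reference: relative to the Random median, 496 regions of the class (45.1%, background 26.9%) reached 1.5 in both replicates, and the active class in the authors' deposited table held 55 in both. The median fold of the 185 was 1.98 in replicate 1 and 2.03 in replicate 2, and the median SD of the log2 fold between replicates was 0.10. Passing in both replicates leaves out regions whose replicates disagree, so this closeness is partly set by the choice. A further 52 regions passed 1.5 in replicate 1 alone (4.73%, background 5.06%) and 67 in replicate 2 alone (6.09%, background 6.07%), shares near those of all regions. Regions that passed in a single replicate had a median input of 52.6 FPKM, against 114 FPKM for the active ones. Active regions were found on each of the 20 chromosomes that hold members of the class.

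Past a fold of 1.5, the class made up a smaller part of the regions as the fold rose. At a fold of at least 1 in both replicates 14.2% of the qualifying regions were of the promoter class, and the share was 16.8% at 1.5 and 16% at 2. It fell to 12.6% at 2.5, 10.2% at 3 and 6.90% at 4. The class was 8.53% of all regions, so the shares at 3 and 4 were near the background. At 5, 33 regions of the table qualified, 0.256% of all, and none of the 1100 promoter class regions did. A count of 0 allows up to 3 regions, or 0.273% of the class, so a share under the background is not shown. TSS_Random had 3, 1 and 0 regions at 3, 4 and 5. Counted by class, 6.55% of promoter class regions reached 2 in both replicates, against 3.92% of Enh_K4me1_K27ac_PolII and 3.49% of all regions. At 4 the shares were 0.364% and 0.618%, which are 4 and 47 regions, and that of all regions was 0.450%. The shares of both classes crossed between 2.5 and 3, as the plot of shares by fold shows. At 3 they were close, 1.18% and 1.26%, or 13 and 96 regions, beside 0.985% of all regions. The crossing thus rests on few promoter class regions, at shares near the background. Ranked by mean log2 fold, the class held 10 of the 100 highest regions, 78 of the 500 highest, 147 of the 1000 highest and 293 of the 2000 highest. In percent these were 10%, 15.6%, 14.7% and 14.65%, beside 8.53% of all regions, and the first was near that background. These shares are descriptions of the same libraries and were not tested.

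**Figure D2:**
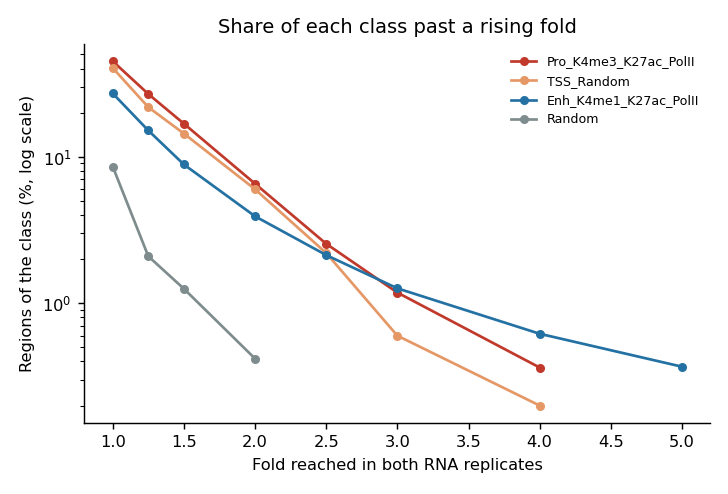
Share of each class (y axis, percent, log scale) whose fold reached the value on the x axis in both RNA replicates; a class with no such region has no point. The promoter class runs from 44.9% at a fold of 1 to 0.364% at 4, above Enh_K4me1_K27ac_PolII up to 2.5 and below it from 3.

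The authors deposited their own active class for each replicate, named after an inflexion point. In the authors' deposited table it marked 77 promoter class regions in replicate 1 (7%, background 4.21%) and 80 in replicate 2 (7.27%, background 4.34%). Both replicates marked 55 of them, 5% of the class beside 2.7% of all regions. Replicate 1 alone marked 22 and replicate 2 alone 25, which follows from the counts above, and no share of all regions was worked out for these. The lowest fold marked active in the authors' deposited table was 2.12 in replicate 1 and 2.18 in replicate 2.

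Activity was then measured against Random regions. The fit compared the RNA libraries with the input by limma, where the median log2 fold of Random was subtracted from each replicate. Calls needed a fold over that centre of at least 1.5 and an adjusted p (Benjamini-Hochberg over all regions) under 0.05. It called 432 promoter class regions higher, 39.3% beside a background of 13.5%, and 3 lower, 0.273% beside 0.442%. Of the 185 active regions, 180 were among the 432. The other 252 had passed the test against Random without reaching 1.5 over the input in both replicates. At an unadjusted limma p under 0.05, 555 promoter class regions were above the centre (50.5%, background 22.1%) and 19 were below (1.73%, background 1.73%). The counts rest on the centre and on the mean trend of the fit. Centred on all regions, limma called 254 regions of the class higher (23.1%, background 6.92%) and 18 lower (1.64%, background 1.33%). Without centring, against the input itself, limma called 93 regions of the class higher (8.45%, background 2.61%) and 9 lower (0.818%, background 0.713%), and over all regions the split went from 1737 higher and 57 lower to 337 and 92. Without the mean trend limma called 0 regions of the class in either direction, with 304 above and 10 below the centre at an unadjusted p under 0.05. The share of all regions past that p was not counted without the trend, so these counts have no background.

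The strongest promoter class regions are given by position in mm9, the build named in the submitters' processing notes. Each was 400 bp long. Means of log2 fold are given ± SD over 2 RNA replicates and hold no error for the input. The 15 highest lay on 13 chromosomes. All 15 were in the authors' active class in both replicates and were called higher by limma, with adjusted p from 8.1e-11 to 3.5e-05. They were picked for their folds, so these calls are no separate support. Without the mean trend 0 of the 15 were called, and without centring 14 were.

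The highest region was chr12:102321626-102322025, with 313 FPKM in the input, 1534 in RNA replicate 1 and 1712 in RNA replicate 2. Its folds were 4.89 and 5.46, and its mean log2 fold of 2.37 ± 0.11 ranked 38th among all 12897 regions. It held 4150 reads in the input and 24481 and 28492 reads in the RNA. The region chr13:54722776-54723175 followed with 41.1 FPKM in the input and 186 and 195 FPKM in the RNA libraries. Both of its folds, 4.44 and 4.64, were high and close (mean log2 fold 2.18 ± 0.046). On chromosome 10, chr10:127813976-127814375 had 123 FPKM in the input and 586 and 502 FPKM in the RNA, with folds of 4.74 and 4.06. In these 3 regions each RNA value was over 4 times the input on the deposited scale.

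The region chr3:87689476-87689875 had 51.2 FPKM in the input and 220 and 227 FPKM in the RNA, and folds of 4.23 and 4.36. It was the last region of the class with both folds over 4. In chr17:88034776-88035175 the input was lower, 18.3 FPKM or 243 reads, against 96.0 and 68.3 FPKM in the RNA. Its folds were 5.02 and 3.59, the former the highest of the class in replicate 1, and its SD of 0.34 on a mean log2 fold of 2.09 was larger than that of the regions above. The region chr7:31373576-31373975 had 111 FPKM in the input and 557 and 373 FPKM in the RNA. Here too replicate 1 was higher, with folds of 4.96 and 3.33 (mean log2 fold 2.02 ± 0.41). Between these close means the order is uncertain.

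Closer agreement was seen in chr2:4802676-4803075, with 128 FPKM in the input and 491 and 485 FPKM in the RNA. Its folds of 3.82 and 3.78 gave a mean log2 fold of 1.93 ± 0.011. The region chr17:56903926-56904325 had 106 FPKM in the input and 394 and 411 FPKM in the RNA, for folds of 3.70 and 3.85. Both regions stood well clear of their input in each replicate. In chr17:26917626-26918025 the replicates differed more: 33.3 FPKM in the input stood against 170 and 93.0 FPKM in the RNA. Its folds were 4.99 and 2.74, and the SD of 0.61 was the largest of the 15.

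On chromosome 15, chr15:81415476-81415875 had 63.1 FPKM in the input, 213 and 232 FPKM in the RNA, and folds of 3.34 and 3.64. The region chr16:23107276-23107675 had 85.2 FPKM in the input, 286 and 307 FPKM in the RNA, and folds of 3.32 and 3.57. It was the nearest of the 15 to a captured Enh_K4me1_K27ac_PolII region, at 3.70 kb. The region chr11:94189226-94189625 had 60.0 FPKM in the input, 212 and 201 FPKM in the RNA, and folds of 3.49 and 3.30. In all of these the folds of the replicates were within 10% of each other.

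The last of the 15 included the X chromosome region chrX:147954926-147955325, with 114 FPKM in the input, 382 and 386 FPKM in the RNA, and folds of 3.33 and 3.36. The region chr4:105988626-105989025 was covered about as deeply as the first, with 323 FPKM in the input, 1030 and 1049 FPKM in the RNA, and folds of 3.18 and 3.24. Both had a small SD, 0.011 and 0.018 on the log2 scale. The region chr19:44636976-44637375 had 65.8 FPKM in the input, 194 and 228 FPKM in the RNA, and folds of 2.92 and 3.42. It and chr17:26917626-26918025 were the members of the 15 whose lower fold was under 3.

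**Figure D3:**
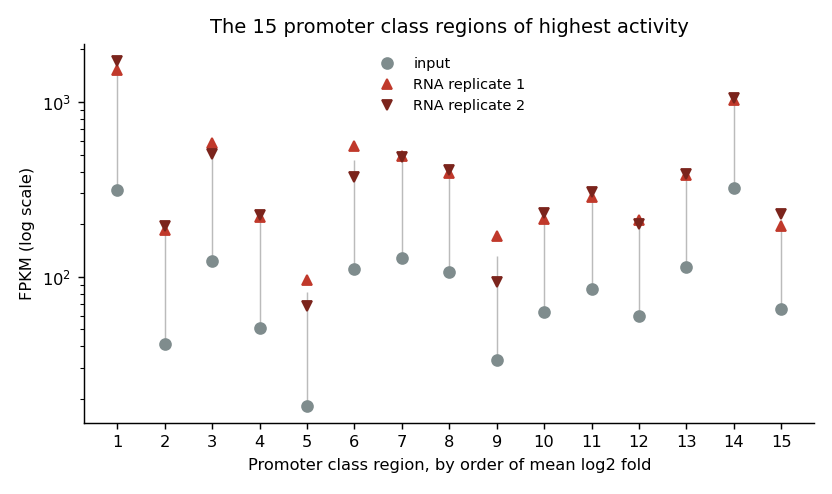
FPKM on a log scale (y axis) of the 15 promoter class regions of highest mean log2 fold (x axis, in the order of the text) in the input, RNA replicate 1 and RNA replicate 2; grey lines join the input to the mean of the RNA values. In each region both RNA values lie above the input, and the input ranges from 18.3 to 323 FPKM.

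A fold of 3 in both replicates was reached by 13 promoter class regions, 1.18% of the class beside 0.985% of all regions, a share near the background. The count was 16 in replicate 1 (1.45%, background 1.27%) and 23 in replicate 2 (2.09%, background 1.57%), and relative to the Random median it was 74 in both replicates (6.73%, background 3.53%). The 3 regions just past this line were chr4:105988626-105989025, chr11:94189226-94189625 and chr16:23107276-23107675, with lower folds of 3.18, 3.30 and 3.32. Just short of it stood chr9:3335226-3335625 with folds of 2.96 and 3.18, chr13:55815826-55816225 with 2.95 and 3.31, and chr4:135411726-135412125 with 2.94 and 3.10. Across the line the lower folds stepped from 2.96 to 3.18, with no region of the class between them.

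At the other end, the lowest regions with an input of at least 10 FPKM mostly differed between replicates. The region chr10:80680726-80681125 had 15.4 FPKM in the input and 0.815 and 2.82 FPKM in the RNA, with a mean log2 fold of -2.64 ± 0.76. The region chr3:142043426-142043825 had 35.6 FPKM in the input against 21.0 FPKM in replicate 1 and 1.202 in replicate 2. Its replicates thus disagreed 9.99-fold, the largest difference between replicates in the class at this input. Of the 5 lowest, chr1:93355626-93356025 was called lower than Random: its input of 122 FPKM stood against 34.8 and 30.2 FPKM in the RNA, with folds of 0.292 and 0.255. This region was low in both replicates, at -1.29 relative to the Random centre on the log2 scale (limma standard error 0.30, adjusted p = 0.0071). The remaining regions of lowest fold were chr2:71205876-71206275 at -1.87 ± 0.85 and chr5:44209726-44210125 at -1.77 ± 0.29 (mean log2 fold). The calls depend on the fit. On the 2 ratios, without the error of the input, limma called 4 of the 5 lower, the chromosome 3 region (adjusted p = 0.066) being the exception. Without the mean trend it called 0 of the 5. With an input of at least 10 FPKM it called 2, chr3:142043426-142043825 (adjusted p = 0.035) and chr1:93355626-93356025. In that setting the limma adjusted p of the highest region of the class was 9.3e-267, from 3 libraries. Such values rest on the fitted trend more than on the replicates of a region, and those of the chromosome 3 region disagreed 9.99-fold.

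The limma fit called 2 more promoter class regions lower than Random. The region chr1:163325176-163325575 had 220 FPKM in the input and 69.3 and 67.5 FPKM in the RNA, with folds of 0.318 and 0.310 (adjusted p = 0.0024). In chr7:4691326-4691725 an input of 101 FPKM stood against 31.8 and 34.2 FPKM, with folds of 0.321 and 0.344 (adjusted p = 0.035). All 3 regions called lower had inputs above 100 FPKM and RNA values under 70 FPKM in both replicates. This is partly set by the calls, which need RNA well under the input. The median limma standard error of the class was also wider under 20 FPKM, 0.71, than at 200 FPKM or more, 0.15.

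Large differences between replicates went with low input. In 74 promoter class regions, 6.73% beside 12.9% of all regions, the folds differed by over 2-fold, and the median input of these 74 was 11.8 FPKM. After the chromosome 3 region above, the largest differences at an input of at least 10 FPKM were in chr15:5056076-5056475 and chr10:44771926-44772325. The former had 20.3 FPKM in the input and 12.9 and 1.92 FPKM in the RNA. The latter had 22.3 FPKM in the input and 3.32 and 14.8 FPKM in the RNA. The high value thus fell in replicate 1 in the former and in replicate 2 in the latter. Neither passed the limma test, with adjusted p of 0.49 and 0.54.

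Across the class, activity rose with the input level of a region. In the 202 promoter class regions with an input under 20 FPKM the median fold was 0.850 in replicate 1 and 0.873 in replicate 2. It was 0.914 and 0.895 in the 230 regions from 20 to 50 FPKM, and 1.02 and 1.06 in the 236 regions from 50 to 100 FPKM. In the 330 regions from 100 to 200 FPKM it was 1.204 and 1.212, and in the 102 regions at 200 FPKM or more it was 1.26 and 1.24. From 20 FPKM up, each band thus stood above the band below it in both replicates. The number of active regions was 13, 26, 35, 83 and 28 in these bands, or 6.44%, 11.3%, 14.8%, 25.2% and 27.5%. Over the 1100 regions the Spearman correlation of fold with input was 0.29 in replicate 1 and 0.30 in replicate 2, as a description: input is also the denominator of the fold.

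The enhancer class of the same polymerase label did not show this order. Its median fold was 0.868 and 0.870 under 20 FPKM, close to the promoter class in both replicates. From 100 to 200 FPKM it was 0.843 and 0.815, and at 200 FPKM or more 0.678 and 0.681. Its active share was 8.18% in the lowest band and 11.8% in the highest. The gap between the median folds of both classes was thus wider at 200 FPKM or more than under 20 FPKM. Random regions had medians of 0.727 and 0.772 under 20 FPKM and of 0.568 and 0.546 at 200 FPKM or more. TSS_Random, at 0.782 and 0.859 in the lowest band and 1.12 and 1.18 in the highest, moved with the promoter class. Why the classes part with input was not tested.

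**Figure D4:**
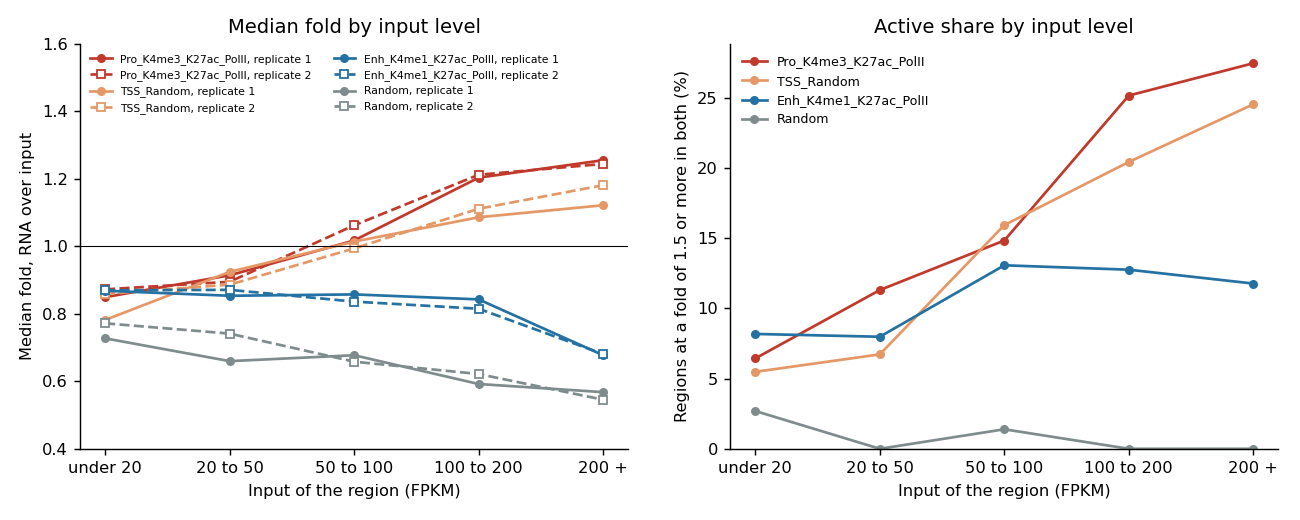
Left, median fold of RNA over input (y axis) by input level of the region in FPKM (x axis) for 4 classes, with solid lines for RNA replicate 1 and dashed lines for RNA replicate 2; right, the share of regions with a fold of at least 1.5 in both. The promoter class climbs from 0.850 and 0.873 to 1.26 and 1.24 on the left and from 6.44% to 27.5% on the right, while the median of Random is lower in the highest band than in the lowest.

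Precision rose along the same bands. In the promoter class the log2 folds of both replicates differed with an SD of 0.92 under 20 FPKM, of 0.61, 0.35 and 0.27 in the next bands, and of 0.21 at 200 FPKM or more. Pearson's r of log2 fold between replicates, across regions, went from 0.44 to 0.94. The median limma standard error fell from 0.71 to 0.15 on the log2 scale. The limma calls rose too: 9 of the 202 regions in the lowest band were called higher, or 4.46%, and 79 of the 102 in the highest, or 77.5%. In the highest band limma called 64.2% of TSS_Random, 23.5% of Enh_K4me1_K27ac_PolII and 0% of Random higher. The median standard error fell in those classes as well, to 0.15, 0.17 and 0.19. Since the median fold of the promoter class also rose along the bands, the parts of fold and precision in its calls were not separated. With so wide an error, a region of low input that was not called is not shown to be inactive.

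Promoter class regions mostly lay apart from the captured Enh_K4me1_K27ac_PolII regions. Gaps to the other captured enhancer classes, Enh_K4me1_K27ac and Enh_K4me1, were not measured. The median gap to the nearest Enh_K4me1_K27ac_PolII region was 65.6 kb, and the 10th percentile was 11.7 kb. Within 5 kb, 23 promoter class regions had such a neighbour, and 3 of them, 13.0%, were active, against 182 of the 1077 others, or 16.9%. The difference of -3.86 percentage points was -1.19 without RNA replicate 1 and -8.68 without RNA replicate 2, and -16.9 within 2 kb, where 0 of 6 near regions were active. Within 25 kb the counts were 37 of 279, or 13.3%, against 148 of 821, or 18.0%. Single replicates had the same order at 25 kb, 18.6% against 22.5% in replicate 1 and 19.7% against 24.0% in replicate 2. Input differed between these groups, with medians of 64.1 and 75.9 FPKM. Within input bands, from the lowest to the highest, the near regions had 4 of 56, 7 of 63, 9 of 70, 10 of 66 and 7 of 24 active, and the others 9 of 146, 19 of 167, 26 of 166, 73 of 264 and 21 of 78. The shares were furthest apart from 100 to 200 FPKM, 15.2% against 27.7%, and no difference was tested.

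The activity of a promoter class region was not seen to follow that of its nearest Enh_K4me1_K27ac_PolII region. In the 279 regions with an Enh_K4me1_K27ac_PolII region within 25 kb, Spearman's rho between both log2 folds was 0.03, as a description across regions of the same libraries. The 279 pairs hold 272 distinct enhancer regions. In 1 pair, at chr8:14995826-14996225, the regions share 351 bp and have the same folds. That region is also among the near regions counted above. The promoter class region had the higher fold in 166 of these 279 pairs, or 59.5%, with a median difference of 0.26 on the log2 scale. The nearest enhancer region was active in 29 pairs, and in 1 of these the promoter class region was active too, or 3.45%. In the 250 pairs with an inactive enhancer region 36 promoter class regions were active, or 14.4%. The regions of a pair differed in depth, with median inputs of 64.1 FPKM for the promoter class and 21.3 FPKM for the enhancer regions, and its part in these values was not tested.

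A few regions of the class shared bases with another captured region. Of 19 such members, 18 overlapped a TSS_Random region, by 76 to 386 bp, and 1 overlapped an Enh_K4me1_K27ac_PolII region. In the 18 pairs the median difference in mean log2 fold was 0.025 and the largest 0.63, and both regions or neither were active in every pair, 7 and 11 of them. Since overlapping regions count the same reads, this is no independent repeat. The largest difference was at the smallest overlap: chr17:15963026-15963425, with folds of 0.753 and 0.807, shared 76 bp with a TSS_Random region at 0.494 and 0.516.

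**Figure D5:**
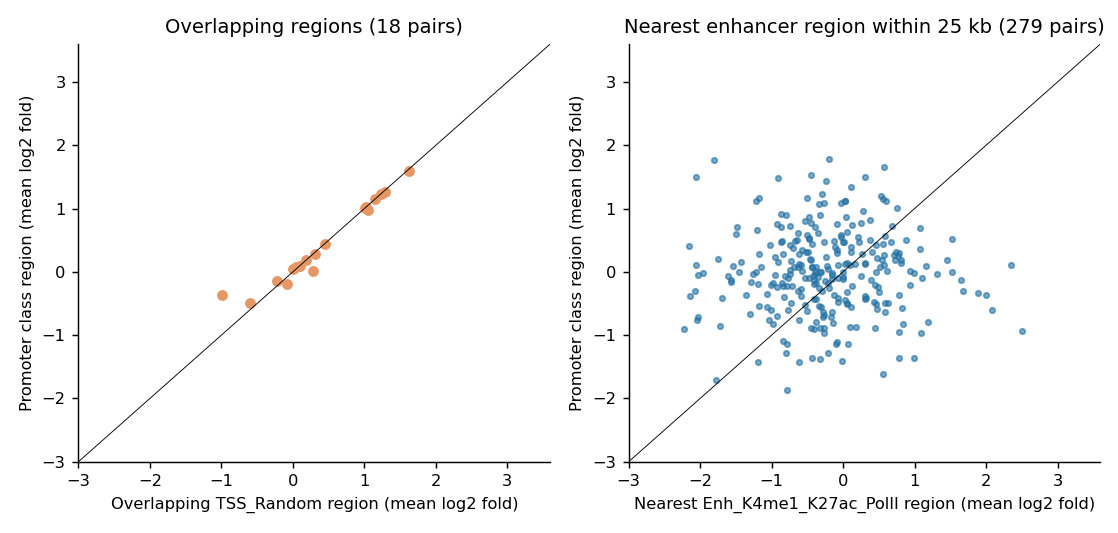
Mean log2 fold of promoter class regions (y axes) against that of the overlapping TSS_Random region (left, 18 pairs) and of the nearest Enh_K4me1_K27ac_PolII region within 25 kb (right, 279 pairs), with the line of equal values. Overlapping pairs mostly lie along the line, with a largest difference of 0.63, and the pairs on the right show no trend (rho 0.03).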

How the data were processed

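The deposited tables, 1 per RNA replicate, give for each region the FPKM of the RNA library and of the input library, per the file headers, and the authors' fold as a ratio, which was recomputed as RNA FPKM plus 1 over input FPKM plus 1. The input column was the same in both tables. Per the submitters' processing notes, the tools were Bowtie2, TopHat2 and Bowtie 1.2.2 and the build mm9, with no role stated for any tool. No read counter is named in the sources used here. FPKM values of 400 bp regions were whole multiples of 1 read (100%, within 0.1 reads); recovered reads describe depth only and no count model was fitted. Across captured regions they came to 7199798 reads in the input and 8999732 and 9583168 in RNA replicates 1 and 2.

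The test was limma 3.58.1 in R 4.3.3 on log2 of FPKM plus 1, with 2 RNA libraries against the input, a mean trend and 1 residual degree of freedom, fitted on all regions and checked on simulated data. The input is thus taken to vary like the RNA libraries. From the fit over all regions limma added 14.3 degrees of freedom to those of each region. The Random centre was -0.61 in replicate 1 and -0.56 in replicate 2 (log2 fold), and that of all regions 0.38 and 0.34 higher. Alternatives were another pseudocount, centre, trend and input minimum, a fit on the ratios, other distances, and leaving out each replicate.

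Named regions were the 15 of highest mean log2 fold among active ones, the 5 of lowest and the 3 of largest replicate difference at an input of at least 10 FPKM, and the 3 on each side of a fold of 3; those called lower, and those in overlapping and neighbouring pairs, were named after their values were seen. Members and lists were chosen with earlier results of these data known, and the input bands were set after the files were read. Genes and sequences were not assigned, since the reference tables use GRCm38 positions and the regions use mm9; the planned gene and sequence comparisons were therefore not run. The other 140 samples were not analysed here.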

Additional observations from a re-analysis of the deposited data

How the results depend on the processing

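No paired analysis was possible because each RNA replicate was set against the same single input library, which leaves no second numbered group. Without 1 replicate, 1 RNA and 1 input library leave no residual degrees of freedom, so those values are counts past the fold alone. The count of 185 active regions became 496 relative to the Random median and 55 with the authors' class. It was 237 without RNA replicate 2 (21.5%, background 13.6%) and 252 without RNA replicate 1 (22.9%, background 14.6%). The count of 13 at a fold of 3 became 74 relative to the Random median and 16 to 23 without either replicate, the 23 without RNA replicate 1. The authors' count of 55 was 77 to 80 without either replicate. The limma count of 432 higher became 254 centred on all regions, 93 not centred, and 0 without the mean trend, where limma put 304 above and 10 below at p under 0.05 before adjustment; by fold alone it was 587 to 610 without either replicate. The limma count of 3 lower became 18 centred on all regions, 9 not centred, 0 without the trend, 29 in the fit on the 2 ratios and 9 at an input of at least 10 FPKM, and 71 (without RNA replicate 2) to 79 (without RNA replicate 1) by fold alone. No share of all regions was counted for the fit on the 2 ratios, the input minimum, the counts by fold alone, or the 304 and 10. At the input minimum the limma p-values rest on the trend more than on the replicates. The distance of the class median to Random ranged from 0.63 to 0.67 without either replicate. The difference in active share at 5 kb, -3.86 percentage points, was -16.9 at 2 kb, where 0 of 6 near regions were active, and -8.68 to -1.19 without either replicate. Over these results 26 alternatives stayed within 1.5 times the count or 1 SD of the value, and 15 did not. This tally is no measure of stability. Leaving out a replicate could not lower a count that needed both replicates. The limma counts without 1 replicate needed no adjusted p, unlike the counts they were set against. For the distance of the class median to Random, leaving out 1 replicate could not move the value by 1 SD. The SD is that of the same 2 replicate values, so these alternatives, counted among the 26, are no support. For the difference at 5 kb the SD, 5.30 percentage points, also came from its 2 single-replicate values. Leaving out 1 replicate is thus no support there either. Of the 15 highest regions 14 stayed called without centring and 0 without the trend, and 15 in each of the other 4 limma settings. Depth limits regions of low input most. The input of at least 10 FPKM for the authors' class (53 regions) was chosen after seeing the data.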

Other observations

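Members of the class rarely lay next to each other. In 4 cases 2 promoter class regions were within 2 kb, with no shared bases. On chromosome 13, chr13:55735826-55736225 and chr13:55736426-55736825, 200 bp apart, were both active, with folds of 1.98 and 1.67 in the former and 1.65 and 1.55 in the latter. On chromosome 6, at the same gap, chr6:15670126-15670525 had folds of 1.08 and 0.884 and chr6:15670726-15671125 had 1.70 and 1.57. The former was not active and the latter was, although 200 bp separate them. The pair at chr13:21872526-21872925 and chr13:21874876-21875275, 1950 bp apart, also held 1 active region, with folds of 0.968 and 0.897 against 1.51 and 1.73. In the pair at chr13:38620126-38620525 and chr13:38620676-38621075 neither was active. Between neighbouring members 2 to 50 kb apart (93 pairs) the median difference in mean log2 fold was 0.68. It was 0.62 from 50 to 200 kb (148 pairs) and 0.67 over 200 kb apart (835 pairs). In the 4 pairs within 2 kb it was 0.46.

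The 16 captured regions longer than 400 bp, from 450 to 800 bp, were all of the promoter class, and 4 of them, 25%, were active, beside 16.8% of the class and 8.51% of all regions. The active ones were chr1:88422776-88423375 with folds of 1.80 and 1.74, chr10:80958976-80959425 with 1.63 and 1.72, chr4:41261426-41262125 with 1.78 and 2.03, and chr6:34812926-34813375 with 1.94 and 3.12. The last had an input of 13.2 FPKM, and its replicates differed most of these 4.

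By chromosome the class held from 30 to 96 members. The active share was lowest on chromosome 14, 1 of 30 or 3.33%, where 4.67% of all captured regions were active, and highest on chromosome 13, 10 of 34 or 29.4%, where 6.96% were. Median input was 69.1 FPKM on chromosome 14 and 106 FPKM on chromosome 13. The median fold of the class on chromosome 14, 0.954 and 1.08, was within the range over chromosomes, 0.860 to 1.21 in replicate 1 and 0.888 to 1.18 in replicate 2. These extremes were picked from 20 chromosomes after their values were seen and were not tested.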
